A study of Mus musculus with 4 samples.

Results

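The sterol-synthesis-high cells of the Diff_MK library were 691 of its 6912 kept cells, and of the 14087 kept cells of the whole series. A cell was kept with at least 1000 detected genes and at most 15% of its unique molecular identifiers (UMIs, which count captured transcripts) from mitochondrial genes. Each kept cell received a score, the mean over Idi1, Fdps, Mvd, Acat2, Pmvk and Elovl6 of ln(1 + UMIs per 10000), and the 10% of cells with the highest scores are called sterol-high below. They were compared with the 3456 cells in the middle 50% of the score, called middle cells, and with the 1382 cells between the 70th and 90th percentile, which lie closest below them.

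The series followed the mouse keratinocyte line MK with an inducible tracing system in which cells carry a fluorescent protein and an expressed lineage tag. One pair of libraries was labelled MK and the other Diff_MK, and in each pair 1 library held messenger RNA and 1 held the tags. Every sample was labelled as treated with Dox, was grown in E low medium with 15% fetal bovine serum, and was sorted for GFP-positive tagged cells before 10x 3′ capture. The labels do not say what Diff stands for or when the cells were taken, and both names refer to 1 cell line. With 1 RNA library per label no test between labels was possible, and since cells of 1 library are not replicates, none was made within a library either.

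Cholesterol is made from acetyl-CoA through mevalonate, farnesyl diphosphate and squalene. Genes of this route, and many of fatty acid synthesis, share the SREBP transcription factors, which the escort Scap carries out of the endoplasmic reticulum when membrane cholesterol is low, while Insig proteins hold them back. SREBP-2 is best known for the sterol genes, and SREBP-1c for fatty acid genes, and both act at promoters together with factors such as NF-Y, which binds CCAAT boxes, and Sp1. In epidermis, keratinocytes make cholesterol, fatty acids and ceramides locally, and the upper layers release them to form the water barrier.

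The score genes encode consecutive steps and side steps of these routes. Acat2 (chr17:12942890-12960747) encodes the cytosolic thiolase that starts the mevalonate route, Pmvk (chr3:89454541-89469013) and Mvd (chr8:122433601-122443422) encode the kinase and decarboxylase that follow mevalonate, Idi1 (chr13:8885501-8892451) the isomerase of the resulting isoprene unit, and Fdps (chr3:89093588-89101959) farnesyl diphosphate synthase. Elovl6 (chr3:129532355-129638495) encodes an elongase of saturated fatty acids. These positions are those of the GENCODE M21 annotation on GRCm38, and all 6 genes are protein-coding.

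The upstream sequences of these genes were read from RefSeq promoter entries on GRCm38.p6, because their transcripts varied together across cells. The stretches below are the 100 bases before the annotated start, 5′ to 3′ on the gene's strand, and were chosen where they overlapped no annotated exon. Capitals mark CCAAT or its reverse complement ATTGG. Mvd is at chr8:122443423-122443522 on the minus strand, Mvk at chr5:114444169-114444268, Hmgcs1 at chr13:119690251-119690350, Nsdhl at chrX:72918421-72918520 and Pmvk at chr3:89454441-89454540, the last 4 on the plus strand.
Mvd: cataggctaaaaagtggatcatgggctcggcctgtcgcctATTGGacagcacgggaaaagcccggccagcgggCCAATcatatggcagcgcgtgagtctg
Mvk: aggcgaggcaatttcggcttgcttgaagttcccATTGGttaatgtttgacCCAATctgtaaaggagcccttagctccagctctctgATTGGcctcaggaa
Hmgcs1: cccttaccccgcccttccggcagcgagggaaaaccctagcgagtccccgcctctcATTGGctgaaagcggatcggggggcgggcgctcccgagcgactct
Nsdhl: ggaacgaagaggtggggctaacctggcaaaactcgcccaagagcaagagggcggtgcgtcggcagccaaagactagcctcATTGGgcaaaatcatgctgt
Pmvk: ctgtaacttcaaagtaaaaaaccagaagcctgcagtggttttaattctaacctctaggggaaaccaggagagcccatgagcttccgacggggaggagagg

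CCAAT stood on either strand within 100 bases of a listed start in 12 of the 13 sterol synthesis genes outside the score that had an entry, or 92.3%. The share over all 27025 genes with an entry was 21.6%. Of the 5 score genes with an entry, Idi1 and Mvd had it and Acat2, Elovl6 and Pmvk did not, and in fatty acid synthesis 8 of 16 genes did. Erg28 was the sterol gene without it, and Ggps1, whose level was not raised, had it. The Sp1-type motif GGGCGG, on either strand and free to overlap the other motifs, stood in 6 of the 13 sterol genes within 100 bases, against 27.3% of all genes. Within 250 bases GGGCGG and CCAAT each stood in 12 of the 13, against 35.4% and 37.5% of all genes. A longer sterol regulatory element, TCACNCCAC on either strand, was found in 0 of the 13 within 100 bases. Within 250 bases it was found in 1 of the 13, Hmgcs1, against 1.22% of all genes. In the Hmgcs1 stretch at chr13:119690184-119690252, plus strand, it is in capitals.
Hmgcs1: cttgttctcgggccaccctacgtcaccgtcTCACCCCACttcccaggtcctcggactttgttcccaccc
A gene with several listed starts was counted once if any start had the motif. Fdft1, Fdps and Sqle were among the genes with no entry.

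Among the 7569 barcodes and 105961628 UMIs deposited for Diff_MK RNA, and the 7780 barcodes and 116732898 UMIs for MK RNA, 6912 and 7175 cells were kept. Between the kept cells of both libraries 9 barcodes were shared, and 0 sterol-high barcodes were among them. The sterol-high cells had fewer UMIs (median 12108) than the middle cells (14842), fewer detected genes (2853 against 3590), and a lower mitochondrial share (5.17% against 6.19%). The cells between the 70th and 90th percentile had a median of 12082 UMIs, so this depth is shared by the upper part of the score. Scrublet doublet scores were not raised: of the 346 cells with the highest scores, 11 were sterol-high, which is 1.59% of the sterol-high cells against 6.34% of the middle cells.

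**Figure D1:**
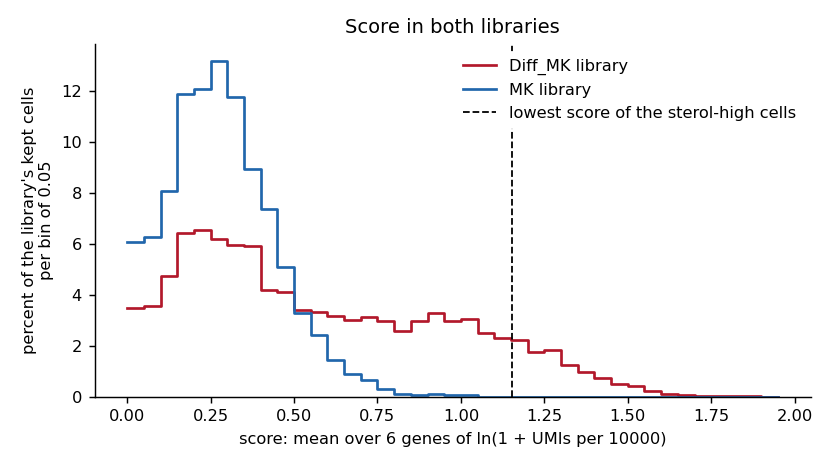
Distribution of the score over the kept cells of the Diff_MK and MK libraries, as the percent of each library's cells per bin of 0.05, with the lowest score of the sterol-high cells as a dashed line. The Diff_MK scores spread up to 1.89 without a gap at the line, and no MK cell reaches it.

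The sterol-high cells were the upper end of a continuous spread and not a separate group, as the score distribution shows. The lowest score inside was 1.1541 and the highest outside was 1.1536. The 10 cells just inside had a median of 1.1555 and the 10 just outside a median of 1.1532. The median score was 1.28 in the sterol-high cells, 0.484 in the middle cells and 0.271 in the MK cells. UMIs of all 6 genes were present in 48.8% of the sterol-high cells and 3.44% of the middle cells. The choice of cells fixed these values.

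The MK library took no part in the choice, and none of its 7175 kept cells reached the threshold. A count of 0 allows a share of up to 0.0418% by the limit of 3 counts and up to 0.0514% by the exact 95% interval, for counting error only. The highest MK score was 1.03, and 1136 Diff_MK cells, or 16.4% (exact 95% interval 15.6 to 17.3), lay above it. Whether the label, the library or the time of sampling goes with this cannot be told apart, since each label has 1 RNA library.

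Levels below are UMIs per 1000000 (CPM) over the summed UMIs of a group, ratios are between such levels, and intervals are exact 95% intervals that cover counting error only. The levels of the score genes are a description, because they chose the cells. Fdps stood at 988 CPM in the sterol-high cells, 285 in the middle cells and 123 in the MK cells. Idi1 stood at 387, 88.4 and 44.3 CPM in the same order. Pmvk stood at 297, 88.4 and 54.0 CPM. All 3 genes were lowest in MK. Acat2 stood at 272, 52.5 and 24.2 CPM, Mvd at 194, 36.0 and 16.6 CPM, and Elovl6 at 76.4, 20.5 and 10.8 CPM. Elovl6 was the most sparse of the 6 and had a UMI in 56.9% of the sterol-high cells, against 93.8% or more for the other 5.

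Each score gene was then measured in cells chosen on the other 5 genes, so that the gene itself took no part. The ratio of the top 10% to the middle 50% was 4.04 for Acat2 (interval 3.82 to 4.28), 3.72 for Mvd (3.47 to 3.98) and 3.49 for Idi1 (3.33 to 3.65). It was 3.18 for Fdps (3.10 to 3.27), 2.74 for Pmvk (2.60 to 2.88) and 2.70 for Elovl6 (2.42 to 3.01). All 6 therefore varied together with the rest of the score. The same procedure within the MK library gave ratios from 1.22 for Elovl6 (1.01 to 1.46) to 1.84 for Idi1 (1.70 to 1.99), so each of the 6 was also higher there, with smaller ratios.

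Across all genes, 211 of the 7475 at 10 CPM or more in at least 1 group were at least 1.5-fold higher in the sterol-high than in the middle cells, which is 2.82% of them and includes the 6 score genes. At least 1.5-fold lower were 772, or 10.3%. The median gene at 5 CPM or more had a log2 ratio of -0.19, a ratio of 0.879. Scaled by that median gene the counts were 400 higher and 375 lower. Since the score chose both groups from these cells, the shares are given as background only.

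Sterol synthesis genes outside the score were higher in the sterol-high cells along most of the route. Of 17 measured genes, 16 had a ratio above 1, and of the 16 at 10 CPM or more 14 were at least 1.5-fold higher and 0 were lower. Their median log2 ratio was 1.08, against -0.19 for all genes. The plot of the pathway shows members in order.

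**Figure D2:**
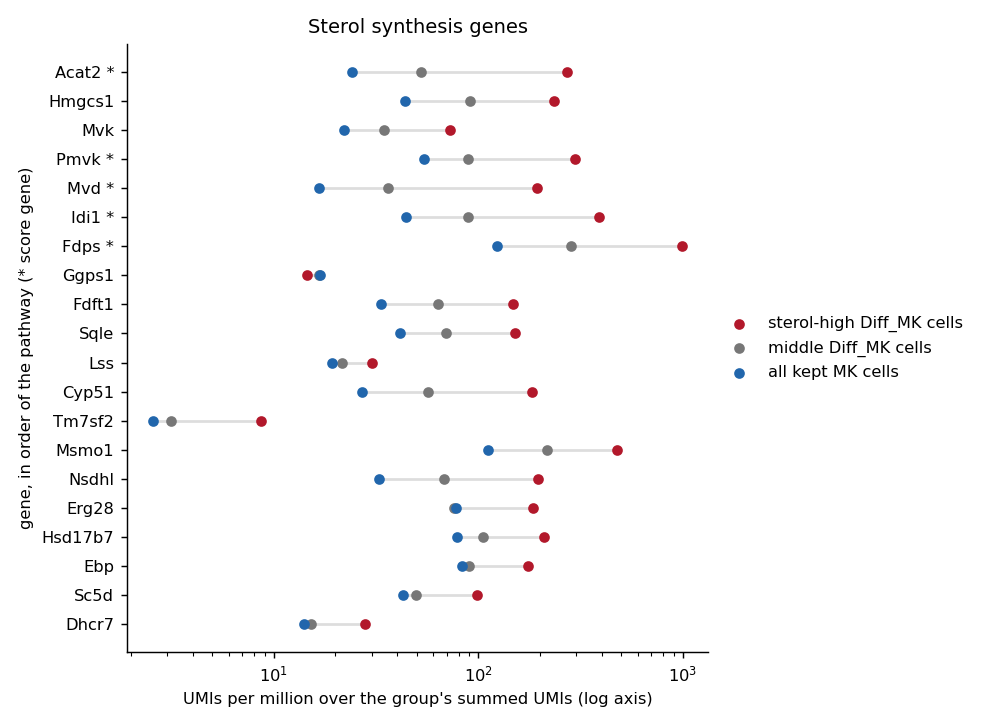
CPM of sterol synthesis genes (log axis) in the sterol-high Diff_MK cells, the middle Diff_MK cells and all kept MK cells, in pathway order, with score genes starred. The sterol-high cells are the highest of the 3 groups for every gene drawn except Ggps1, where they are the lowest at 14.4 CPM.

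At the start of the route, Hmgcs1, which makes HMG-CoA, stood at 233 CPM in the sterol-high cells, 90.8 in the middle cells and 43.7 in the MK cells. Its ratio of sterol-high to middle cells was 2.57 (2.44 to 2.71), and a UMI was found in 88.0% of the sterol-high and 67.0% of the middle cells. Mvk, mevalonate kinase, stood at 72.8, 34.4 and 22.0 CPM. The order of the groups was the same for both genes: sterol-high, then middle, then MK.

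From farnesyl diphosphate the pathway turns to squalene and sterols. Fdft1, squalene synthase, stood at 148 CPM in the sterol-high, 63.5 in the middle and 33.4 in the MK cells. Sqle, the epoxidase that commits squalene to sterols, stood at 151, 69.2 and 41.5 CPM. Lss, the cyclase that closes the ring to lanosterol, was at 30.3, 21.6 and 19.3 CPM, a ratio of 1.40 (1.22 to 1.60), which is under the 1.5-fold mark. Ggps1 leads away to geranylgeranyl diphosphate instead, and its 14.4, 16.7 and 16.8 CPM gave a ratio of 0.867 (0.715 to 1.04), an interval that includes 1.

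The steps after lanosterol were higher too. Cyp51, the lanosterol demethylase, stood at 183 CPM in the sterol-high, 56.7 in the middle and 26.8 in the MK cells, the largest ratio of the list at 3.23 (3.04 to 3.43). Nsdhl, a decarboxylating dehydrogenase of the C-4 demethylation complex, stood at 197, 67.7 and 32.7 CPM, a ratio of 2.90 (2.74 to 3.08). Its partners Msmo1, at 473, 216 and 111 CPM, and Hsd17b7, at 209, 105 and 78.8 CPM, were higher as well. Erg28, which tethers that complex, stood at 185, 76.0 and 77.3 CPM, so its middle and MK levels were alike.

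Late steps include an isomerase, a desaturase and a reductase. Ebp stood at 175 CPM in the sterol-high and 90.3 in the middle cells, Sc5d at 98.8 and 49.5, and Dhcr7 at 27.9 and 15.1. Tm7sf2, a sterol C-14 reductase, was below 10 CPM in both groups, at 8.69 and 3.13. Ebp, Sc5d and Dhcr7 were each past the 1.5-fold mark.

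Fewer genes of sterol control and uptake differed. Of 13 measured genes, 4 were at least 1.5-fold higher and 0 lower, with a median log2 ratio of 0.16. Insig1, which retains the SREBPs and is itself one of their targets, stood at 29.0 CPM in the sterol-high, 9.94 in the middle and 4.64 in the MK cells, a ratio of 2.92 (2.50 to 3.39). Stard4, a cytosolic sterol carrier, stood at 80.6, 33.7 and 32.1 CPM. Tmem97 stood at 54.1, 35.4 and 35.2 CPM, and Vldlr, a lipoprotein receptor, at 12.2, 7.04 and 1.38 CPM.

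The regulators themselves were flat by comparison. Srebf2, which encodes SREBP-2, stood at 88.8 CPM in the sterol-high and 79.6 in the middle cells, a ratio of 1.12 (1.03 to 1.20). Srebf1 stood at 12.5 and 15.5 CPM, a ratio of 0.810 (0.658 to 0.988), and Scap at 41.2 and 48.6 CPM. Insig2 stood at 48.7 and 42.7 CPM. These are transcript levels, and processing of the SREBP proteins was not measured.

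Fatty acid synthesis followed in part. Of 19 measured genes 17 had a ratio above 1, and of the 18 at 10 CPM or more 8 were at least 1.5-fold higher and 0 lower, with a median log2 ratio of 0.53. Acly, which makes cytosolic acetyl-CoA from citrate, stood at 178 CPM in the sterol-high, 74.0 in the middle and 56.4 in the MK cells. Acss2, which makes it from acetate, stood at 20.5, 4.41 and 3.67 CPM, a ratio of 4.66 (3.82 to 5.67). The citrate carrier gene Slc25a1 stood at 103, 56.7 and 54.3 CPM. These 3 genes, which supply cytosolic acetyl-CoA, were all past the fold.

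Scd2, a desaturase of stearoyl-CoA, stood at 708 CPM in the sterol-high, 311 in the middle and 182 in the MK cells. Fasn, fatty acid synthase, stood at 87.8, 51.1 and 53.8 CPM, and Tecr, a reductase of chain elongation, at 777, 434 and 291 CPM. Acsl3, an acyl-CoA synthetase, and Mid1ip1, an activator of acetyl-CoA carboxylase, were the other two past the fold, at 122 against 65.7 CPM and 99.9 against 62.5 CPM. Acaca, the acetyl-CoA carboxylase that opens the route, stood at 35.1 and 25.8 CPM, a ratio of 1.36, and Fads2 at 91.3 and 63.4 CPM. Fads1, at 35.4 and 35.0 CPM, and Hacd3, at 23.3 and 28.0 CPM, did not join them. Scd1, at 9.03 and 2.25 CPM, stayed below the 10 CPM minimum. Scd1 and Scd2 are similar in sequence, as are members of the Krt6, Krt16 and Krt17, and Sprr2 families, and how reads were shared among them was not tested.

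Genes of other lipid routes stayed mostly within the fold. Among enzymes that spend isoprenoids on dolichol, ubiquinone and prenylation, 0 of 10 genes at 10 CPM or more passed 1.5-fold in either direction, with a median log2 ratio of -0.17. The list of LXR targets and cholesterol export holds some genes that are active when sterols are plentiful. In it 0 of 7 were higher and 2 were lower, with a median log2 ratio of -0.55. Its summed level was nearly level, at 522 against 493 CPM. Those 2 were Nceh1, at 9.93 against 20.9 CPM, and Soat1, which esterifies cholesterol for storage, at 14.0 against 22.2 CPM. Npc2, a lysosomal sterol carrier, went the other way at 319 against 213 CPM, a little under the fold. In the triglyceride and lipid droplet list 1 of 9 was higher and 2 were lower: Lpin1, at 15.1 against 5.03 CPM, and Agpat2 and Lpin2, at 47.3 against 97.7 CPM and 15.6 against 31.1 CPM. In fatty acid oxidation 0 of 10 were higher and 1, Cpt1a, was lower.

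Against the cells between the 70th and 90th percentile, which share their depth, the differences were small. There 22 of 7115 genes were at least 1.5-fold higher, which is 0.309%, and 21 lower, which is 0.295%, while the median gene had a log2 ratio of -0.01. The sterol synthesis list outside the score had a median log2 ratio of 0.34, with 17 of 17 above 0 and Cyp51 at 1.35-fold. Fatty acid synthesis had a median of 0.24, and control and uptake one of 0.08.

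Across 10 equal bins of the score the sterol list was higher at every step. Its summed level was 576 CPM in the lowest bin, 853 in the fifth, 1127 in the sixth and 2334 in the highest. Fatty acid synthesis went from 1048 to 2581 CPM, and control and uptake from 334 to 516 CPM. Isoprenoid branch enzymes stood at 333 CPM in the lowest and 340.5 in the highest bin. Insig1 went from 4.15 to 29.0 CPM over the bins, while Srebf2 went from 63.7 to 88.8.

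**Figure D3:**
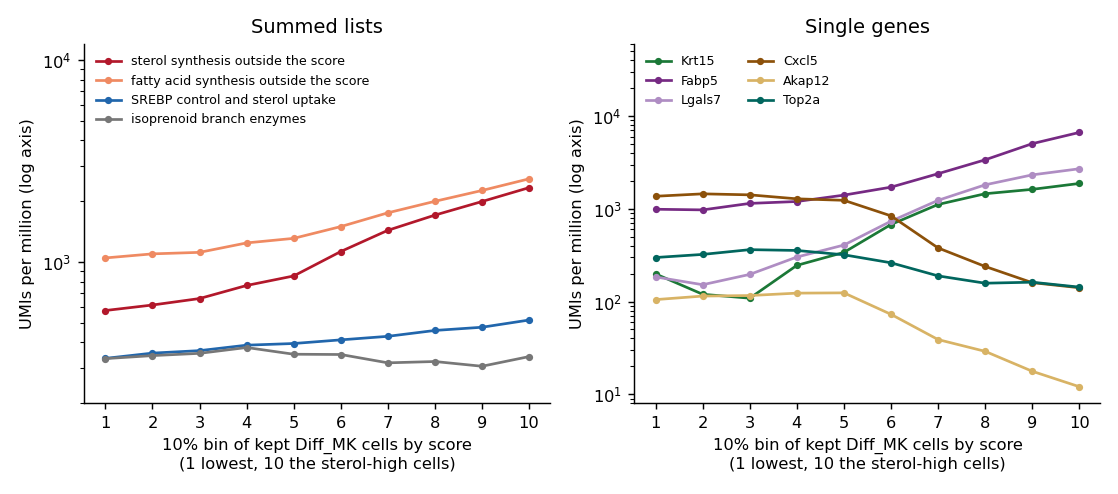
Summed CPM of 4 lipid lists (left) and of 6 single genes (right), on log axes, over 10 equal bins of kept Diff_MK cells ordered by score. The sterol list climbs from 576 to 2334 CPM. Between the lowest and the highest bin Krt15 goes from 199 to 1879 CPM, Cxcl5 from 1368 to 141 CPM and Akap12 from 105 to 12.1 CPM. These genes do not move steadily: Krt15 is at 109 CPM in bin 3, Cxcl5 at 1452 in bin 2 and Akap12 at 124 in bin 5.

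The bins also show a turn near the middle of the score, where keratinocyte and growth genes changed together. Krt15, which marks basal keratinocytes and the follicle bulge, stood at 109 CPM in the third bin, 339 in the fifth, 1115 in the seventh and 1879 in the highest. The share of cells with a Krt15 UMI was 30.1% in the third bin, 69.3% in the seventh and 79.7% in the highest. Cxcl5, a neutrophil chemokine, moved the opposite way, from 1416 to 379 and 141 CPM. The middle 50% therefore held cells from both sides of this turn, and every ratio against it includes that mixture.

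Sterol genes were also higher in narrower sets of cells. Among cells with a Krt15 UMI, 551 sterol-high and 1757 middle cells, the median log2 ratio of the sterol list was 0.93. Such cells occur on both sides of the turn, and the G1/S and inflammatory medians among them were -0.89 and -1.68, so this set still holds the mixture. Among cells with few cell cycle UMIs, 500 sterol-high and 1602 middle cells, it was 0.85. In cells thinned to 7500 UMIs it was 1.01, and when the cells were chosen on a random part of their UMIs and measured on the rest it was 0.98.

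Among genes reaching 50 CPM, the highest ratios outside the score belonged mainly to keratinocyte genes. Fabp5, the epidermal fatty acid-binding protein, stood at 6669 CPM in the sterol-high, 1719 in the middle and 1166 in the MK cells, a ratio of 3.88 (3.84 to 3.92). It had the highest ratio of the epidermal lipid barrier list. That list was nearly level, with a median log2 ratio of 0.02 and 2 of 10 genes higher and 0 lower. Nearly every cell had a Fabp5 UMI, and the median cell had 24.4 per 10000 UMIs in the sterol-high and 11.01 in the middle group. The 10% of sterol-high cells with most Fabp5 held 53.2% of its UMIs, so the summed level leans on a minority. Lgals7, a galectin of stratified epithelia, stood at 2706, 686 and 33.9 CPM, with medians of 23.6 and 1.67 per 10000 in the sterol-high and middle cells. Relative to the cells between the 70th and 90th percentile the ratio was 1.59 for Fabp5 and 1.31 for Lgals7.

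Krt15 (chr11:100131758-100135928) stood at 1879 CPM in the sterol-high, 581 in the middle and 1.02 in the MK cells. In cells thinned to 7500 UMIs, 71.9% of the sterol-high and 38.3% of the middle cells had a Krt15 UMI, against 0.673% of MK cells, where free RNA and expression cannot be told apart. Krt32, a hair keratin, stood at 91.5, 28.2 and 0.868 CPM. Krt14 and Krt5, the basal keratin pair, stood at 21319 against 12130.0 CPM and 5560 against 2899 CPM. Of the simple-epithelium keratins Krt19 stood at 2719 against 1129.7 CPM, Krt7 at 43.9 against 37.8 and Krt8 at 66.3 against 75.7. The list had 4 measured members. The remaining one, below 10 CPM in both groups, had the lowest log2 ratio, at -3.73. The basal keratins and Krt19 were thus past the fold, and Krt7 and Krt8 were not. Much of this was shared by the cells between the 70th and 90th percentile. Against them the ratio was 1.22 for Krt15 and 1.12 for Krt32. There 0 of 17 basal genes and 0 of 3 simple-epithelium keratins at 10 CPM or more were past the fold.

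Other basal genes did not follow the keratins. Of 17 basal genes at 10 CPM or more, 3 were at least 1.5-fold higher, namely Krt15, Krt5 and Krt14, and 2 were lower, with a median log2 ratio of -0.23, close to that of all genes. The integrin gene Itgb1 stood at 228 against 342 CPM and Col17a1, a hemidesmosome collagen, at 313 against 307 CPM. Itga3, another integrin gene, was 1 of the 2 lower genes, at 92.1 against 149 CPM.

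Of 11 spinous genes at 10 CPM or more, 6 were at least 1.5-fold higher and 1 lower, with a median log2 ratio of 0.56. Krtdap, a secreted keratinocyte protein, stood at 1467 against 701 CPM, Dmkn at 978 against 616 CPM and Ly6d at 2772 against 1020 CPM. Krt10, the classical suprabasal keratin, was level at 30.4 against 29.6 CPM. Desmosome genes had a median log2 ratio of 0.53, with 3 of 12 higher, among them Perp at 1364 against 813 CPM and Dsp at 916 against 597 CPM. Relative to the cells between the 70th and 90th percentile the spinous median was 0.25, with 1 of 11 higher and 0 lower. There the desmosome median was 0.16, with 0 of 12 past the fold, and the ratio of Ly6d was 1.27.

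Granular and cornified envelope genes were split. Of 16 at 10 CPM or more, 4 were higher and 6 lower, and the list median of -0.14 kept its sign in only 7 of 14 other settings. Asprv1, an epidermal protease, stood at 134 against 43.0 CPM, Sprr2a3 at 102 against 36.5 CPM and Sprr1b at 1884 against 1157 CPM. In the other direction Lor, loricrin, stood at 6.096 against 31.7 CPM, and Crct1 at 3.50 against 33.4 CPM. The Crct1 difference came from few cells, 9 sterol-high (1.30%) and 84 middle cells (2.43%) having any UMI, with up to 675 UMIs in 1 middle cell. Relative to the cells between the 70th and 90th percentile, 3 of 12 genes of this list were higher and 1 lower. There the ratio was 1.74 for Asprv1 and 1.30 for Sprr2a3.

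The list of stress keratins and alarmins, which are made in wounded or inflamed epidermis, was split as well. Of 8 genes at 10 CPM or more, 4 were at least 1.5-fold higher (Krt6a, Krt6b, Krt16 and Defb1) and 4 lower (Krt17, Slpi, S100a8 and S100a9), with a median log2 ratio of -1.23. This median covered the 9 genes at 5 CPM or more, 4 of them above 0. Against the cells between the 70th and 90th percentile only 7 genes reached 5 CPM, again with 4 above 0, and their median was 0.26. The 2 medians thus cover different genes. Krt6b stood at 204 CPM in the sterol-high, 35.4 in the middle and 10.4 in the MK cells, the highest ratio of all named genes at 5.76 (5.39 to 6.14). Only 10.6% of the sterol-high and 6.66% of the middle cells had a Krt6b UMI, and the 10% of sterol-high cells with most held 99.8% of its UMIs. Krt16 stood at 1399.7, 447 and 182 CPM, with 80.2% of the sterol-high UMIs in the top 10% of cells. Krt6a, with a UMI in 99.7% of the sterol-high cells, stood at 5796 against 2906 CPM, and Defb1, a beta-defensin, at 300.5 against 124 CPM. Krt17 was lower at 194 against 457 CPM. The calgranulin genes S100a8 and S100a9 were sparse, at 0.677 against 11.7 CPM and 2.14 against 15.2 CPM. Cstdc5 stood at 54.9 against 16.9 CPM, Tmem45a at 79.8 against 26.8 and Rdh11, a retinol dehydrogenase, at 64.5 against 21.8. Against the cells between the 70th and 90th percentile, Cstdc5 was level (ratio 0.993). There the ratio was 1.31 for Tmem45a, 1.38 for Rdh11, 1.78 for Krt16 and 3.74 for Krt6b.

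Among genes reaching 50 CPM, the lowest ratios belonged to chemokines, Id genes and growth-state genes. Akap12, a kinase-anchoring protein, stood at 12.1 CPM in the sterol-high, 91.9 in the middle and 92.4 in the MK cells, 7.61-fold lower than in the middle cells (6.28 to 9.30). Cxcl5 stood at 141, 958 and 1515 CPM, 6.79-fold lower (6.42 to 7.19). The other neutrophil chemokine genes Cxcl3, Ppbp and Cxcl1 were 5.62-, 5.45- and 5.36-fold lower. All 7 inflammatory genes at 10 CPM or more were past the fold downward, with a list median log2 ratio of -1.96. Slpi, a protease inhibitor of inflamed epithelium, stood at 80.8, 410.2 and 626 CPM. For Cxcl5 and Slpi the order of the groups was MK, then middle, then sterol-high.

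Id1, Id2 and Id3, inhibitors of basic helix-loop-helix factors, were 5.21-, 4.74- and 3.82-fold lower. Hmga2, a chromatin protein of growing and fetal cells, stood at 35.7, 167 and 477 CPM. Odc1, ornithine decarboxylase of polyamine synthesis, stood at 128, 539 and 867 CPM. Arhgdib stood at 29.7, 114 and 280 CPM, while Fst, the activin antagonist follistatin, stood at 39.6, 145 and 150.1 CPM and Serpinb1a at 16.5, 56.8 and 47.6 CPM. All of these genes were also lower in the cells between the 70th and 90th percentile than in the middle cells. The ratio of sterol-high cells to them was 0.898 for Id1, 0.817 for Id2, 0.816 for Id3, 0.865 for Fst, 0.771 for Odc1 and 0.768 for Cxcl1. It was 0.699 for Cxcl5 and 0.678 for Hmga2, and the inflammatory list had a median log2 ratio of -0.34 there. Akap12 and Arhgdib, with ratios of 0.515 and 0.505, were still past the fold, as were Cxcl3, Ppbp, Slpi and Serpinb1a, with ratios from 0.553 to 0.579.

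Cell cycle genes were lower as well. Of 27 G1/S genes at 10 CPM or more 22 were at least 1.5-fold lower and 0 higher, with a median log2 ratio of -0.85, and of 30 G2/M genes 24 were lower and 0 higher, with a median of -0.75. Pcna, the replication clamp, stood at 69.4 against 133 CPM, and Top2a, the mitotic topoisomerase, at 143 against 282 CPM. Summed cell cycle UMIs above the median of the library were found in 27.6% of the sterol-high cells (24.3 to 31.1) and 53.6% of the middle cells (52.0 to 55.3). The cells between the 70th and 90th percentile were at 27.6% too, and against them the G2/M median was -0.01. In ribosome biogenesis 7 of 15 genes were lower than in the middle cells, with a median of -0.58. Relative to the cells between the 70th and 90th percentile that median was -0.03, with 0 of 13 past the fold.

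Hypoxia and glycolysis genes had a median log2 ratio of 0.47, with 8 of 24 higher and 0 lower. Ndrg1 and Bnip3, both hypoxia-inducible, stood at 220 against 90.8 CPM and 116 against 53.3 CPM. Against the cells between the 70th and 90th percentile the median was 0.06.

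Markers of other cell types were at or near 0. Of the 14 sebocyte markers, which matter because sebocytes make lipid, 9 were at 0 in the sterol-high cells, Awat1, Elovl3, Mc5r and Pparg among them, and the summed level was 15.5 CPM against 14.5 in the middle cells, mostly Fabp4. Of 8 adipocyte markers 7 were at 0. Summed levels of the melanocyte, fibroblast, immune, endothelial, erythroid and Merkel lists were 0.452 to 10.5 CPM in the sterol-high cells, against 0.261 to 12.5 CPM in the middle cells. Of the keratinocyte genes, Krt14 had a median of 208 per 10000 UMIs in the sterol-high and 96.6 in the middle cells.

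The same ranking inside the MK library gave the pattern in cells that the choice had not used. There the top 10% by score, 718 cells, were set against the 3588 middle cells, whose median depth was alike, 15621 and 16069 UMIs. At 10 CPM or more, 61 of 7624 genes were at least 1.5-fold higher, which is 0.8%, and 4 lower, which is 0.0525%. The sterol synthesis list outside the score had a median log2 ratio of 0.52, with 16 of 16 above 0, against -0.02 for all genes. Cyp51 stood at 46.3 against 24.6 CPM, Hmgcs1 at 69.7 against 40.1 and Insig1 at 8.23 against 4.04. Fatty acid synthesis had a median of 0.16, and control and uptake 0.12.

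Of the genes higher in the sterol-high cells part were past the fold in MK too, and of the lower ones none were past it downward. Of the 205 genes outside the score that were higher in the sterol-high Diff_MK cells, 128 reached 10 CPM in at least 1 MK group. Of these 119 had a ratio above 1 and 27 reached 1.5-fold. Of the 772 lower genes, 760 reached 10 CPM there, 577 had a ratio below 1 and 0 reached 1.5-fold lower, while 8 were 1.5-fold higher. The shares of all MK genes above and below a ratio of 1 were not counted. The median log2 ratio in MK was 0.29 for the higher and -0.08 for the lower genes, against -0.02 for all genes at 5 CPM or more. Of all MK genes at 10 CPM or more, 0.8% were 1.5-fold higher and 0.0525% lower. Krt6b, Krt16 and Asprv1 had MK ratios of 5.50, 3.54 and 3.74, close to or above those in Diff_MK, and Fabp5 had 1.501. Akap12 and Cxcl5 had 1.01 and 0.939. G1/S and G2/M genes had MK medians of -0.09 and -0.20. The difference between the libraries was not tested.

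**Figure D4:**
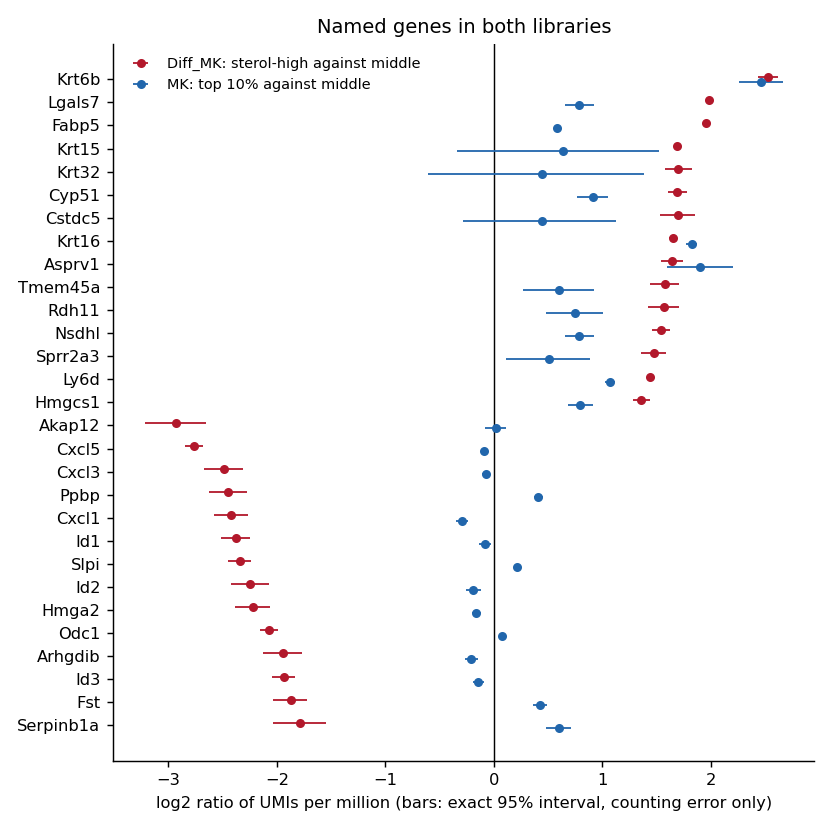
Log2 ratio of CPM for the 15 genes at the top and 14 of the 15 at the bottom of the ratio order outside the score, in Diff_MK (sterol-high against middle cells) and in MK (top 10% against middle cells), with exact 95% intervals for counting error. Krt6b, Krt16 and Asprv1 stand right of 1 in both libraries, while the MK points of the lower 14 genes lie between -0.29 and 0.60.

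Compared directly with all MK cells, the sterol-high cells had 8.11 times the summed level of the score genes and 3.40 times that of the other sterol synthesis genes. The Diff_MK cells outside the sterol-high group had 2.11 and 1.51 times the MK level. The rest of the Diff_MK library, summed as a whole, was thus also above MK, by a smaller ratio. This did not hold for its lowest scores. In bins 1, 2 and 3 of the score the sterol list outside the score summed to 576, 613 and 660 CPM, against 687 in MK. For control and uptake these ratios were 1.36 and 1.05.

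Lineage tags placed the sterol-high cells in many clones. A clone is taken as the cells whose leading tag had at least 3 counts and at least 2 times the next tag's. Of the kept Diff_MK cells 4747 had a clone, and 484 of these were sterol-high, or 10.2% (9.35 to 11.1). Assignment was as frequent in the sterol-high (70.04%) as in the middle cells (69.7%). Sterol-high cells were found in 51 of 128 clones of any size.

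The share differed between clones. Of 50 clones with 20 or more cells, 12 had no sterol-high cell, but the largest of those held 36 cells and together they held 331. In 7 clones the interval lay above the overall share and in 5 below it. Among the 11 clones with 100 or more cells the share ran from 1.78% (3 of 169 cells, 0.368 to 5.10) to 22.5% (36 of 160 cells, 16.3 to 29.8). The 2 largest clones, of 539 and 498 cells, had 17.6% (14.5 to 21.1) and 11.6% (8.96 to 14.8). The 5 clones with most sterol-high cells held 54.1% of those assigned, against 36.5% of all assigned cells.

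**Figure D5:**
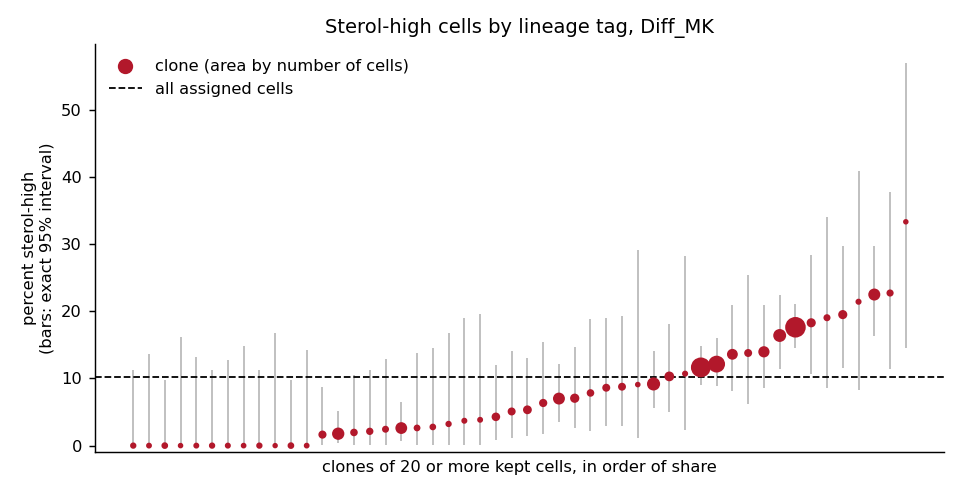
Percent of sterol-high cells in each of 50 Diff_MK clones with 20 or more kept cells, ordered by share, with exact 95% intervals as bars, point area by clone size and the share of all assigned cells dashed. Large clones lie on both sides of the dashed line at 10.2%, and the highest share, 33.3%, belongs to a clone of 21 cells.

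Within clones the sterol pattern held in each clone that could be examined. In 13 clones with at least 10 sterol-high and 20 middle cells, the summed sterol synthesis list outside the score was higher in the sterol-high cells in 13 of 13, with log2 ratios from 0.97 to 1.57. Hmgcs1, Cyp51 and Nsdhl were higher in 13 of 13, as were Fabp5 and Lgals7. Cxcl5, Akap12, Hmga2 and Id1 were lower in 13 of 13. Of the keratins, Krt14 was higher in 13 of 13, Krt15 in 10 of the 13 and Krt16 in 9. Krt6b was above in 10 too, but that count cannot be read as a difference. The floor of 3 counts favours the smaller, sterol-high group of a clone where counts are few. With this floor the fibroblast list, at 0.452 CPM in all sterol-high cells, was also above in 13 of 13. These cells share 1 library and the clones are not replicates.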

How the data were processed

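Per the labels' protocols, cells were sorted for GFP and captured with 10x 3′ v3 chemistry, and tag libraries followed the CITE-seq protocol. Per the submitters' processing notes, Cell Ranger 6.1.2 and build mm10 were used. Whether introns were counted is not stated. The authors deposited counts: whole UMI counts per gene and cell for RNA, and counts per tag and cell for the tags, where whether they are UMIs or reads is not stated. In the Diff_MK tag table, 10.1% of 4034391 counts were in an entry without a named tag and were left out.

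Cells were kept and scored as stated in the report. UMIs were summed over the cells of a group and divided by the group's total, and a floor of 3 counts entered ratios. Intervals of ratios and shares are exact binomial at the 95% level and cover counting error only. Intervals of list medians are 95% intervals from the ranked ratios of the list's genes, or their range for under 6 genes. They describe the spread between genes. A gene counted as past the fold at 1.5-fold or more and at 10 CPM or more in at least 1 group; list medians used members at 5 CPM or more. Named genes were the 6 score genes, the 15 highest and 15 lowest ratios with 10 counts added, taken from genes reaching 50 CPM (predicted, mitochondrial and ribosomal protein genes left out), all lipid list members at 10 CPM, and the most abundant or most changed members of the other lists; any further gene was chosen after its values were seen. Some genes that the rule names are not reported here. The 37 lists, the members and the rules were chosen with earlier results of these data known. Doublets were not removed; Scrublet scores (scanpy 1.11.5) served as an alternative. The fold rule was tested on simulated data. Python 3.11.15, numpy 2.4.6 and scipy 1.17.1 were used.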

Additional observations from a re-analysis of the deposited data

Results flagged for a closer look

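Among the 15 genes with the lowest ratios of those reaching 50 CPM, the following 5 moved in opposite directions in the libraries, with counting intervals on opposite sides of no difference, and the difference between the libraries was not tested. Ppbp had a log2 ratio of -2.45 between sterol-high and middle Diff_MK cells and 0.41 between the top 10% and middle MK cells. The values were -2.34 and 0.22 for Slpi and -2.07 and 0.08 for Odc1. Fst had -1.87 and 0.43, and Serpinb1a, which inhibits neutrophil proteases, had -1.78 and 0.60.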

How the results depend on the processing

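With 1 library per label, nothing here measures the spread between cultures. The exact intervals cover counting error only, and those of list medians the spread between genes. No paired analysis was possible because no test was made and each label has 1 RNA library. The comparisons with the 70th to 90th percentile and with Krt15-positive cells were chosen after seeing the data.

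The counts of genes past the fold, 211 higher and 772 lower, became 400 and 375 when scaled by the median gene, 110 and 211 at 50 CPM, 923 and 2178 at 10 counts, and 22 and 21 against the 70th to 90th percentile. The lower count alone became 1188 with the score as a summed share, 431 with middle cells weighted to the depth of the sterol-high cells, 399 in cells with few cell cycle UMIs and 495 in cells with a Krt15 UMI. The sterol list median, 1.08, became 0.94 with depth weighting, 0.85 with few cell cycle UMIs, 0.93 with a Krt15 UMI and 0.34 against the 70th to 90th percentile, and fatty acid synthesis 0.24 there. G1/S and G2/M medians were -0.66 and -0.56 under median scaling, -1.15 and -1.17 with the summed share, -0.70 and -0.35 with depth weighting, and -0.12 and -0.0097 against the 70th to 90th percentile, and G2/M was -0.90 after thinning. Hypoxia and glycolysis became 0.24 with few cell cycle UMIs and 0.055 against the 70th to 90th percentile, and the granular median, -0.14, became 0.47 with a Krt15 UMI. The share of MK cells at the threshold became 0.0836% for the top 20%. Where the main interval did not include 0, signs changed in 3 cases: the ER stress and amino acid response list, at 0.0012 under median scaling and 0.0094 against the 70th to 90th percentile, and Cstdc5, at -0.0098 against the latter. Medians of 11 lists whose interval included 0 also changed sign. The granular (-0.41 to 0.47), epidermal lipid barrier (-0.10 to 0.21) and simple keratin (-0.38 to 0.44) lists kept it in 7 of 14 settings, NRF2 and Notch in 11, and isoprenoid, triglyceride, p53, immediate early, heat shock and stress keratin lists in 12 or 13. The genes that enter a median can differ between settings. For the stress keratin list they were 9 in the main comparison and 7 against the 70th to 90th percentile. The cause of these changes was not tested. The other 142 values for the main results stayed within their intervals or within 1.5 times the main count.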
